A study of Homo sapiens with 9 samples.

Results

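GSK3A and GSK3B encode the alpha and beta forms of glycogen synthase kinase 3, and each was targeted by 4 single guide RNAs (sgRNAs) in a pooled knockout screen of 763 genes. Both genes were chosen by name. They had stood among the genes gained from baseline to day 10 in an earlier look at these counts, so their values against baseline are a description. The fit covered all genes, these included, but nothing is read from their own tests against baseline. All 8 of their sgRNAs, of 3152 in the count table, passed the filter on low counts. The screen used RH4 cells, a human rhabdomyosarcoma line with a PAX3::FOXO1 fusion, which carried the Brunello kinome library of Cas9 guides against kinases and related genes, introduced at a coverage of 1000 cells per sgRNA. Every group shared puromycin selection (0.25 µg/ml for 72 h, started 48 h after infection). Baseline cells were taken after selection. The vehicle and the pralatrexate groups had a further 72 h of recovery and then 10 days with vehicle or with 1.5 nM pralatrexate, a folate analogue that inhibits dihydrofolate reductase. The study's text and its methods give different lengths for the selection, so the time between baseline and day 10 is uncertain. Each group had 3 libraries. The study calls them parallel cultures in one place and technical replicates in another, so a p-value here reflects differences among libraries that may be technical in origin.

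GSK3 is a serine and threonine kinase that is active in resting cells and is switched off by signals. In the Wnt pathway it phosphorylates beta-catenin within a destruction complex, after casein kinase 1 has placed a priming phosphate, and this marks beta-catenin for degradation. In the insulin and growth factor pathway AKT, itself activated by PI3K, PDPK1 and the MTOR complex, phosphorylates an amino-terminal serine of GSK3 and inhibits it, which releases glycogen synthase. The alpha and beta forms have nearly the same kinase domain and can stand in for each other in many of these roles, so a cell that loses 1 of the genes usually keeps GSK3 activity from the other.

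The genes lie apart in the genome and share sequence only in part. On GRCh38, GSK3A spans chr19:42226225-42242625 and GSK3B spans chr3:119821321-120094994, both on the minus strand (GENCODE annotation), and the reference transcript of each has 11 coding exons, with 1449 coding bases in GSK3A and 1260 in GSK3B. The files name no guide sequences, so the positions of the 8 sgRNAs are not known here, and the coding exons were searched instead for every 20-base Cas9 target followed by NGG whose cut falls in the exon. GSK3A held 314 such targets and GSK3B held 151. No target was identical between the genes, 1 pair differed at 1 base, and 10 targets of each gene lay within 3 mismatches of a target of the other. A target of GSK3A had a median of 9 mismatches to its nearest target in GSK3B. Whether any library sgRNA is 1 of the 10 is not known, so cutting of the other gene was not tested.

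The closest pair of targets is shown because it is where a guide to either gene would match the other best. It lies in the sixth exon of both genes, at chr19:42234439-42234461 and chr3:119912790-119912812 on the minus strand, with the differing base and the AGG of the PAM in capitals. Counted from 1 at the 5′ end of the target, the GSK3A target and the GSK3B target differ by T13C.
GSK3A target: agtgcaaagcagTtggtccgAGG
GSK3B target: agtgcaaagcagCtggtccgAGG

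The same exon holds the most alike 60 coding bases, which are shown as the stretch where the coding sequences match best and do not stand for the rest of the genes. The stretches lie at chr19:42234363-42234422 and chr3:119912714-119912773, are read on the coding (minus) strand, and have the differing bases in capitals. They matched at 52 of 60 bases (86.7%), with 20 matching bases as the longest run.
GSK3A exon: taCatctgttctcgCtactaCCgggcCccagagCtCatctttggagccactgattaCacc
GSK3B exon: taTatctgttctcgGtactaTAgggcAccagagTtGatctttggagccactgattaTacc

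Libraries held 3483100 to 4431337 reads at baseline, 3194504 to 4602712 with vehicle and 2468136 to 4227230 with pralatrexate. The 99 non-targeting sgRNAs kept after the filter, which match no human gene and make no cut, set the level of cells without a knockout. They took 3.27% to 3.30% of reads in baseline libraries and 4.11% to 4.25% at day 10, and their median log2 fold change from baseline to vehicle was 0.31, against 0.0062 for the sgRNAs that target a gene. A further reference was 27 genes known mainly from cells of other kinds, whose 108 sgRNAs do cut a gene. It is called the germline or lymphoid list after most of its members, but 3 of the 27 (GUCY2D, GUCY2F and GRK7) are known from the photoreceptors of the retina. Whether RH4 cells need any of the 27 was not tested. Their median was 0.059 with vehicle and 0.053 with pralatrexate, 0.25 and 0.28 below the non-targeting median. The level of GSK3A and GSK3B against baseline therefore depended on the reference, and each value is given on both.

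The sgRNAs of both genes were measured at depth. sgRNA 1 of GSK3A had 1475, 1471 and 1393 reads in baseline libraries 1 to 3, 1933, 1803 and 2827 with vehicle, and 1891, 1351 and 1858 with pralatrexate. The least abundant, sgRNA 2 of GSK3B, had 399, 446 and 258 reads at baseline, 368, 618 and 375 with vehicle, and 433, 335 and 592 with pralatrexate. The other 6 had between 461 and 4165 reads in each library. Together the 8 sgRNAs took 0.233% to 0.245% of reads at baseline, 0.330% to 0.347% with vehicle and 0.312% to 0.352% with pralatrexate. No day 10 library overlapped a baseline library, which also held for the share of the non-targeting sgRNAs. The genes were chosen from these contrasts, so nothing is read from this.

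In CPM, the reads scaled to the total of the library, GSK3A sgRNA 1 stood at 360, 332 and 400 at baseline, 605, 392 and 644 with vehicle and 513, 547 and 440 with pralatrexate. Vehicle library 2 lay within the baseline range, and every pralatrexate library lay above it. sgRNA 2 stood at 235, 287 and 276 at baseline, 403, 474 and 310 with vehicle and 393, 375 and 378 with pralatrexate. All 6 day 10 libraries were above all 3 baseline libraries. sgRNA 4 stood at 184, 203 and 184 CPM at baseline, 279, 273 and 291 with vehicle and 313, 304 and 308 with pralatrexate, again without overlap. sgRNA 3 differed from these, with 337, 340 and 359 CPM at baseline, 412, 340 and 356 with vehicle and 380, 364 and 303 with pralatrexate. Its day 10 libraries lay on both sides of the baseline range.

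GSK3B sgRNA 1 stood at 615, 632 and 576 CPM at baseline, 918, 905 and 830 with vehicle and 969, 963 and 787 with pralatrexate. sgRNA 3 stood at 390, 377 and 332, then 519, 492 and 496, then 540, 565 and 443. sgRNA 4 stood at 160, 174 and 132, then 219, 291 and 294, then 256, 265 and 321. For these 3 sgRNAs no day 10 library overlapped a baseline library. sgRNA 2 stood at 97.5, 101 and 74.1 at baseline, 115, 134 and 85.4 with vehicle and 118, 136 and 140 with pralatrexate, where vehicle library 3 lay within the baseline range and the pralatrexate libraries all lay above it. Thus 5 of the 8 sgRNAs were higher without overlap with vehicle, and 7 of 8 with pralatrexate. Of the 3046 targeting sgRNAs kept, 16.9% were higher without overlap with vehicle and 17.7% with pralatrexate. The genes were chosen from the same contrasts, so nothing is read from this excess.

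**Figure D1:**
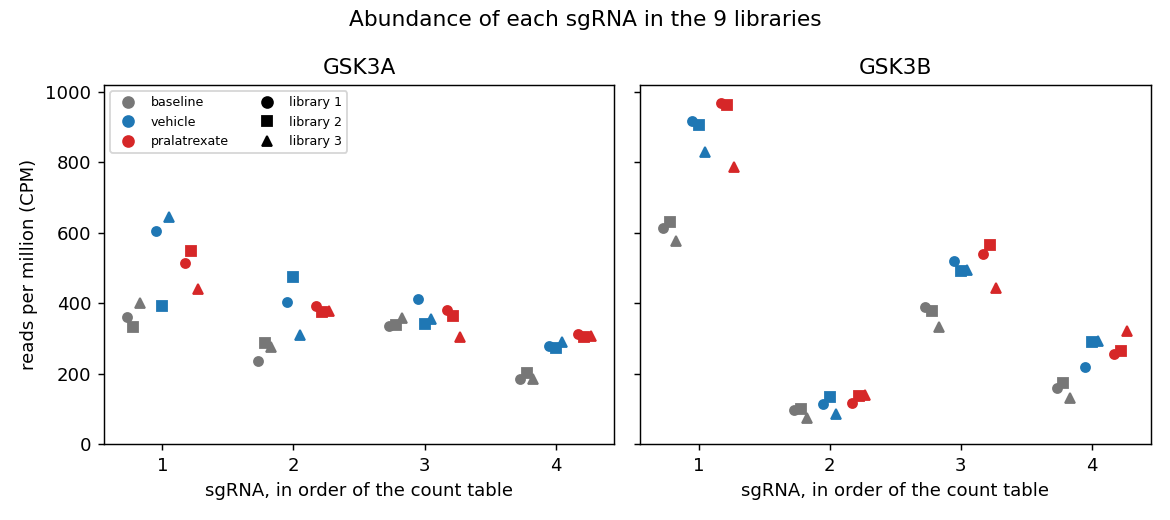
Abundance in CPM of each sgRNA of GSK3A (left) and GSK3B (right); every point is 1 library, colours are the groups and shapes the library numbers. sgRNA 3 of GSK3A stays between 303 and 412 in all 9 libraries, while sgRNA 1 of GSK3B goes from 576 to 632 at baseline to 787 to 969 at day 10.

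From baseline to vehicle the fitted log2 fold changes of the GSK3A sgRNAs were 0.56 ± 0.14, 0.55 ± 0.14, 0.073 ± 0.12 and 0.54 ± 0.14 (SE of the fit, 3 libraries a group), and those of GSK3B were 0.52 ± 0.097, 0.27 ± 0.23, 0.43 ± 0.11 and 0.76 ± 0.16. Their gene means were 0.43 ± 0.24 and 0.50 ± 0.21 (SD, 4 sgRNAs), ranks 5 and 2 of 763 genes from the highest. CDK13, which pairs with cyclin K to phosphorylate RNA polymerase II, was the highest at 0.91. All 4 sgRNAs were higher for each gene, as they were for 120 genes (15.7%). In this comparison 0.393% of genes (3 genes) passed the threshold as enriched and 6.68% (51 genes) as depleted. The 3 include both GSK3 genes, which were chosen for this gain, so nothing is read from their passing.

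Beside the non-targeting sgRNAs the same changes were small. GSK3A sgRNAs 1, 2 and 4 were above 93, 92 and 92 of the 99 non-targeting sgRNAs, and sgRNA 3 was above only 4 of them. GSK3B sgRNA 4 was above all 99, sgRNAs 1 and 3 were above 91 and 84, and sgRNA 2 was above 34. Beside the sgRNAs that cut a germline or lymphoid gene they stood higher. Of those 108, GSK3A sgRNA 3 was above 57, GSK3B sgRNA 2 was above 92, and the other 6 sgRNAs were above 107 or all 108. The highest of the 27 germline or lymphoid genes was BLK, a B cell kinase, at 0.33, below both GSK3 genes.

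From baseline to pralatrexate the order was alike, in a contrast that shares the baseline libraries with the one above. GSK3A sgRNAs stood at 0.43, 0.49, −0.012 and 0.67, a mean of 0.39 ± 0.29, and GSK3B sgRNAs at 0.55, 0.50, 0.46 and 0.83, a mean of 0.58 ± 0.16 (SD, 4 sgRNAs). The means had ranks 4 and 2 of 763. GSK3A sgRNA 3 was above 2 of 99 non-targeting sgRNAs, and sgRNA 4 of either gene was above all 99. In this comparison 0.262% of genes (2 genes) were enriched and 7.21% (55 genes) depleted. The 2 include GSK3B, from which nothing is read for the same reason.

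**Figure D2:**
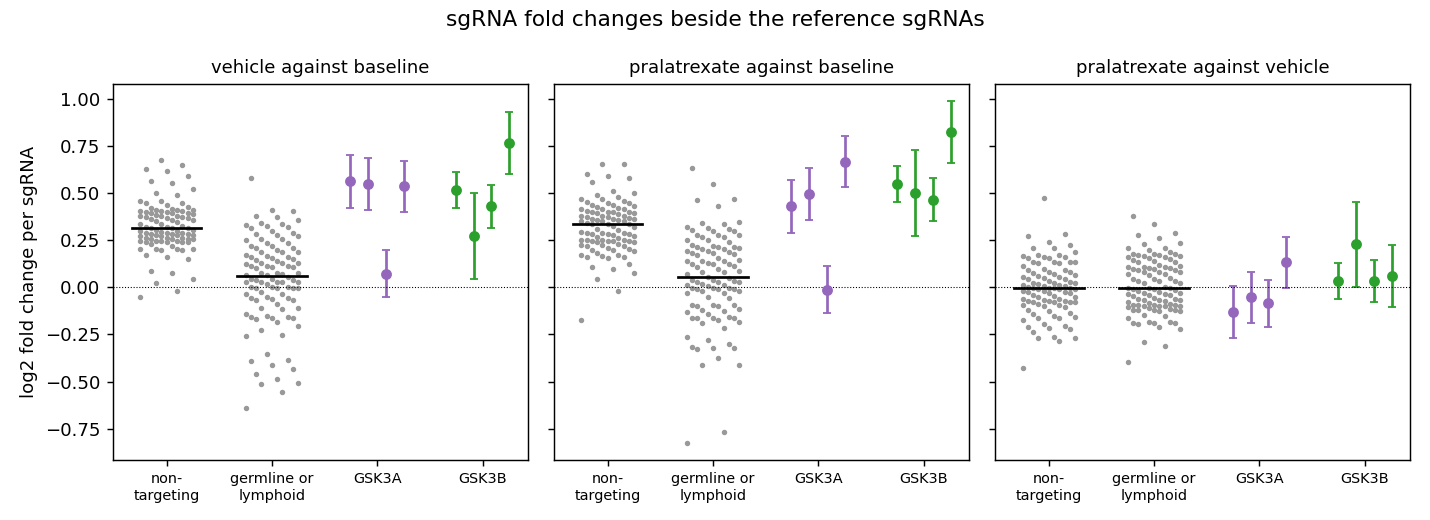
Log2 fold change per sgRNA in the 3 comparisons; grey points are the 99 non-targeting and the 108 germline or lymphoid sgRNAs with their medians as bars, and coloured points are the 4 sgRNAs of each GSK3 gene with the standard error of the fit. Against baseline the non-targeting medians stand at 0.31 and 0.34, and sgRNA 3 of GSK3A stands at 0.073 and −0.012; between the day 10 groups all 8 sgRNAs lie between −0.13 and 0.23.

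The gene level in each library, the mean log2 CPM of the 4 sgRNAs minus the median of the non-targeting sgRNAs, gave the order of the groups. For GSK3A it was −0.21, −0.16 and −0.11 in baseline libraries 1 to 3, −0.018, −0.17 and −0.052 with vehicle and −0.025, −0.070 and −0.21 with pralatrexate. Means were −0.16 ± 0.049, −0.080 ± 0.080 and −0.10 ± 0.096 (SD, n = 3 each), and the 3 groups overlapped, so no neighbours in this order stood apart by more than their spread. For GSK3B it was −0.33, −0.32 and −0.60 at baseline, −0.32, −0.17 and −0.30 with vehicle and −0.18, −0.12 and −0.21 with pralatrexate. Means were −0.42 ± 0.16, −0.26 ± 0.085 and −0.17 ± 0.042 (SD, n = 3 each). Vehicle overlapped baseline, and pralatrexate overlapped vehicle but lay above all 3 baseline libraries. Baseline library 3 was the lowest, and without it the difference of vehicle from baseline on this scale was 0.062 where it was 0.15 with all libraries. A gene level that was higher without overlap on this scale was found for 0.131% of genes with vehicle (1 gene) and 0.262% with pralatrexate (2 genes, GSK3B among them).

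Measured from the median of the germline or lymphoid sgRNAs, both genes were higher at day 10 in every library. GSK3A was at −0.14, 0.019 and 0.012 at baseline, 0.47, 0.25 and 0.31 with vehicle and 0.40, 0.34 and 0.17 with pralatrexate. GSK3B was at −0.27, −0.14 and −0.48 at baseline, 0.16, 0.25 and 0.059 with vehicle and 0.25, 0.29 and 0.18 with pralatrexate. Neither gene's day 10 libraries overlapped baseline, which held for 12.7% of all genes with vehicle and 11% with pralatrexate. The difference of vehicle from baseline was 0.38 ± 0.085 for GSK3A and 0.45 ± 0.11 for GSK3B (SE, n = 3 each) on this reference, against 0.077 ± 0.054 and 0.15 ± 0.10 on the non-targeting reference. Without the 3 retinal genes the reference gave 0.37 and 0.45.

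**Figure D3:**
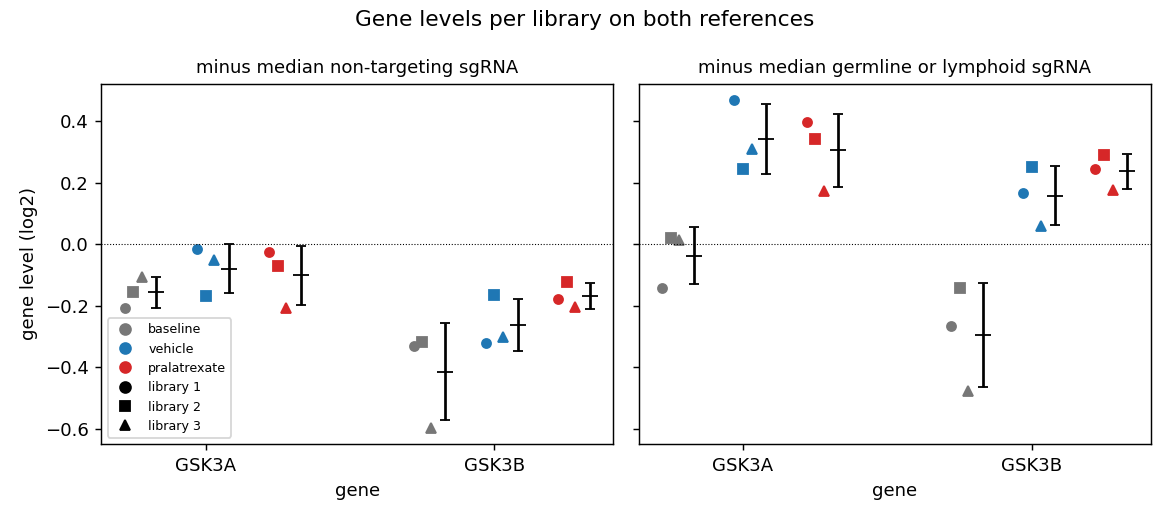
Gene level per library, the mean log2 CPM of 4 sgRNAs minus the median non-targeting sgRNA (left) or minus the median germline or lymphoid sgRNA (right); points are libraries, shapes are library numbers, and black bars are the mean and SD of 3 libraries. On the left every level is below 0 and baseline and vehicle overlap for both genes; on the right all day 10 libraries are above all baseline libraries.

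The comparison of pralatrexate with vehicle asked whether the drug changed the abundance of cells with either knockout. It was not the contrast the genes were chosen from, but it shares the vehicle libraries with it. Neither gene passed the threshold. GSK3A had a log2 fold change of −0.035 ± 0.12 and GSK3B of 0.089 ± 0.094 (SD, 4 sgRNAs), ranks 514 and 107 of 763, with an FDR of 1 for depletion of GSK3A and 0.976 for enrichment of GSK3B by rank aggregation on edgeR p-values. In this comparison 0.524% of genes (4 genes) were depleted and 0% were enriched. At an unadjusted p under 0.05, 30 genes were lower and 41 higher. The GSK3A sgRNAs stood at −0.13, −0.054, −0.085 and 0.13 and the GSK3B sgRNAs at 0.032, 0.23, 0.034 and 0.061. Adjusted over all sgRNAs, their edgeR FDR ran from 0.943 to 0.984. In CPM only GSK3A sgRNA 4 did not overlap between the groups, higher with pralatrexate, where 9.09% of targeting sgRNAs did not overlap in either direction.

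Relative to the non-targeting sgRNAs the difference of pralatrexate from vehicle was −0.022 for GSK3A (exact permutation p = 0.6, two-sided) and 0.094 for GSK3B (exact permutation p = 0.3), where 3 libraries against 3 cannot give a p below 0.1. The groups overlapped for both genes, and 6.55% of genes did not overlap either way. The 95% interval from limma was −0.18 to 0.14 for GSK3A, or 0.882 to 1.10 times the vehicle level, and −0.081 to 0.27 for GSK3B, or 0.946 to 1.20 times. Same-numbered day 10 libraries deviated together, which the permutation test and the interval above do not take into account. Within these pairs GSK3A differed by −0.0076, 0.10 and −0.16, so that the sign turned between pairs. GSK3B differed by 0.14, 0.043 and 0.096, higher with pralatrexate in 3 of 3. The share of all genes with the same sign in 3 of 3 pairs was not counted, so nothing is read from this. With the replicate number as a block in edgeR the fold changes were −0.025 for GSK3A and 0.095 for GSK3B, with an FDR of 1 and 0.985.

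The forms were also set against each other, which needs no reference. GSK3B minus GSK3A, in mean log2 CPM, was −0.12, −0.16 and −0.49 at baseline, −0.30, 0.0035 and −0.25 with vehicle and −0.15, −0.054 and 0.0040 with pralatrexate. Every group overlapped every other. Its difference of pralatrexate from vehicle was 0.12 ± 0.11 (SE, n = 3 each), exact permutation p = 0.3, two-sided and unpaired. A level of 1 gene set against the other includes how well each sgRNA was represented in the pool, so only its change between groups compares the genes. Over the 9 libraries the levels relative to non-targeting sgRNAs correlated by 0.020 between GSK3A and GSK3B, which as a description of 9 libraries in 3 groups has no test. By this correlation with GSK3A, GSK3B stood 41st from the highest among the other genes.

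On the same scale all genes share the non-targeting median and the read depth of a library, and differences between the groups enter too. The genes with the highest Pearson's r with each form over the 9 libraries were taken on that scale. For GSK3A they were RPS6KA3 (r = 0.64), a ribosomal S6 kinase that can phosphorylate the inhibitory serine, MPP6 (0.63), a membrane scaffold, PRKAR1B (0.52), a regulatory subunit of protein kinase A, CDK13 (0.43) and STK10 (0.37), a lymphocyte-oriented kinase. For GSK3B they included CDK13 (0.66), TRIM24 (0.53), a chromatin reader, PAK3 (0.27), a p21-activated kinase, and SGK3 (0.12), an AKT-like kinase. CDK13 was in both sets. It had the highest fold change with vehicle, and both GSK3 genes were chosen for their gain from baseline. Nothing is therefore read from its place in both sets. No r was tested. The non-targeting median averaged 8.30 log2 CPM at baseline and 8.66 in each day 10 group, so a gene steady in CPM falls on this scale. Values as low as 0.27 and 0.12, though among the highest for GSK3B, are therefore not read as a measure of shared change.

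The kinases around GSK3 were read from lists made for its known pathways. A decrease means that cells with the knockout became a smaller share of the pool. Upstream, in the list of kinases from PI3K to AKT, 3 of 10 genes fell with vehicle and 0 rose by rank aggregation, where 6.68% of all genes fell and 0.393% rose. At an unadjusted p under 0.05, 3 were lower and 1 was higher. edgeR on summed reads called 5 lower and 1 higher, limma 4 lower and 1 higher, and DESeq2 3 lower and 0 higher. Over all 763 genes with vehicle, edgeR on summed reads called 160 lower and 110 higher, limma 151 and 69, and DESeq2 56 and 1. At an unadjusted p under 0.05, 115 of all genes were lower and 60 higher. Counts with vehicle in every list below are to be read beside these. MTOR, the growth kinase whose complexes act on both sides of AKT, fell by 2.07 (FDR 0.00342), PDPK1, which activates AKT, fell by 1.63 (FDR 0.0165), and PIK3CA, the alpha catalytic subunit of PI3K, fell by 1.20 (FDR 0.0279; 0.0527 and 0.0512 without vehicle library 2 or 3). The FDR here is from rank aggregation on edgeR p-values. With pralatrexate against baseline MTOR fell by 2.14, PDPK1 fell by 1.52 and PIK3CA fell by 1.16. PIK3R1, a regulatory subunit that holds PI3K in check, had a fold change of 0.45 with vehicle, the third highest of 763 genes, between those of GSK3B and GSK3A, and did not pass. Of all genes, 0.524% (4 genes) fell with pralatrexate against vehicle. In that comparison PIK3R1 was the gene of this list that fell, by 0.40 (FDR 0.000268), with all 4 sgRNAs lower. Without vehicle library 2 its FDR was 0.0884. The list's median was −0.12 with vehicle and −0.060 for pralatrexate against vehicle, beside 0.018 and 0.0052 over all genes.

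Among 15 kinases known to phosphorylate the inhibitory serine of GSK3 or closely related to these, AKT1 fell with vehicle, by 0.51 (FDR 0.0241). Its FDR was 0.0574 without vehicle library 1 and 0.0784 without vehicle library 2. None rose by this test, where 6.68% of all genes fell and 0.393% rose. At an unadjusted p under 0.05, 2 were lower and 4 higher. edgeR on summed reads called 3 lower and 5 higher, limma 3 of each, and DESeq2 1 lower and 0 higher. Rank aggregation called 1 higher without baseline library 2, and 1 higher with the compared groups alone in the fit. The highest was RPS6KA3 at 0.39. With pralatrexate against vehicle none of the 15 passed by rank aggregation, DESeq2, edgeR on summed reads or limma. At an unadjusted p under 0.05, 1 of the 15 was lower, where 30 of all 763 genes were. The 15 lay between −0.091 and 0.13. The median was 0.079 with vehicle.

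Of 20 kinases of the Wnt and beta-catenin pathway none passed in any comparison by rank aggregation on edgeR p-values. With vehicle, 2 were lower and 2 higher at an unadjusted p under 0.05, DESeq2 called 0, edgeR on reads summed per gene called 2 lower and 3 higher, and limma on gene means called 2 of each. CSNK1A1, the casein kinase that primes beta-catenin for GSK3, had −0.86 with vehicle (FDR 0.0680), and CSNK2A1, the alpha catalytic subunit of casein kinase 2, had 0.35. The median of the list was 0.093 with vehicle, 0.029 for pralatrexate against vehicle and 0.082 for pralatrexate against baseline. Of 11 kinases that prime GSK3 substrates, of which 4 are also in the Wnt list, none passed either, with a median of −0.076 with vehicle, where 3 were lower and 2 higher at an unadjusted p under 0.05 and edgeR on summed reads and limma each called 5 lower and 3 higher. Without baseline library 3, rank aggregation called 1 Wnt and 2 priming kinases lower with vehicle and 1 of each list higher with pralatrexate against baseline. Among 17 genes of glycogen and AMPK metabolism HK2, a hexokinase that feeds glucose into glycolysis and glycogen synthesis, fell by 0.84 with pralatrexate against baseline (FDR 0.0293; 0.0576 when libraries were scaled on the non-targeting sgRNAs, and 0.0622 and 0.0887 without baseline library 2 or pralatrexate library 3). No other gene of that list passed by rank aggregation on edgeR p-values with all libraries. Of all 763 genes, 7.21% fell and 0.262% rose with pralatrexate against baseline. In that comparison 2 of the 17 were lower and 3 higher at an unadjusted p under 0.05, where 113 of all genes were lower and 67 higher. DESeq2 called 1 lower, edgeR on summed reads called 4 lower and 7 higher, and limma called 3 of each. Over all genes in that comparison DESeq2 called 54 lower and 2 higher, edgeR on summed reads 174 and 123, and limma 152 and 75. With vehicle rank aggregation called 0 of the 17, or 1 lower without baseline library 1 or 3 or vehicle library 3. At an unadjusted p under 0.05, 1 of them was lower and 3 higher. DESeq2 called 1 of them lower, edgeR on summed reads 3 lower and 6 higher, and limma 2 lower and 4 higher.

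Of 61 relatives of GSK3 in the CMGC group of kinases, which takes in the cyclin-dependent and mitogen-activated kinases, 6 fell and 1 rose with vehicle by rank aggregation, where 6.68% of all genes fell and 0.393% rose. edgeR on summed reads called 16 lower and 10 higher, limma 17 and 7, and DESeq2 6 and 1. Over all 763 genes the same tools called 160 lower and 110 higher, 151 and 69, and 56 and 1, in that order. CDK1, which drives mitosis, fell by 3.25, CDK9, which releases paused RNA polymerase II, fell by 2.89, MAPK14, the stress kinase p38 alpha, fell by 1.58, and CDK6, a kinase of early cell cycle entry, fell by 1.45. CDK13 was the member that rose, by 0.91 (FDR 2.31e-06), with all 4 sgRNAs higher, and by 0.83 with pralatrexate against baseline. The SD over its sgRNAs was 0.13. With pralatrexate against vehicle, CDK12, its close relative that also pairs with cyclin K, was the relative that passed and fell by 0.64 (FDR 3.47e-05). Of all genes, 0.524% (4 genes) fell and 0% rose in that comparison. The median of the 61 was −4.5e-05 with vehicle and −0.013 for pralatrexate against vehicle, beside 0.018 and 0.0052 over all genes. None of the 27 germline or lymphoid genes passed in any comparison, though with vehicle 1 was lower and 4 higher at an unadjusted p under 0.05 and edgeR on summed reads called 4 lower and 7 higher, limma 4 of each and DESeq2 0. When libraries were scaled on the non-targeting sgRNAs the median of all genes moved to −0.32 with vehicle and −0.31 with pralatrexate against baseline, the GSK3A and GSK3B values became 0.096 and 0.16 with vehicle, and they had ranks 5 and 2 again.

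**Figure D4:**
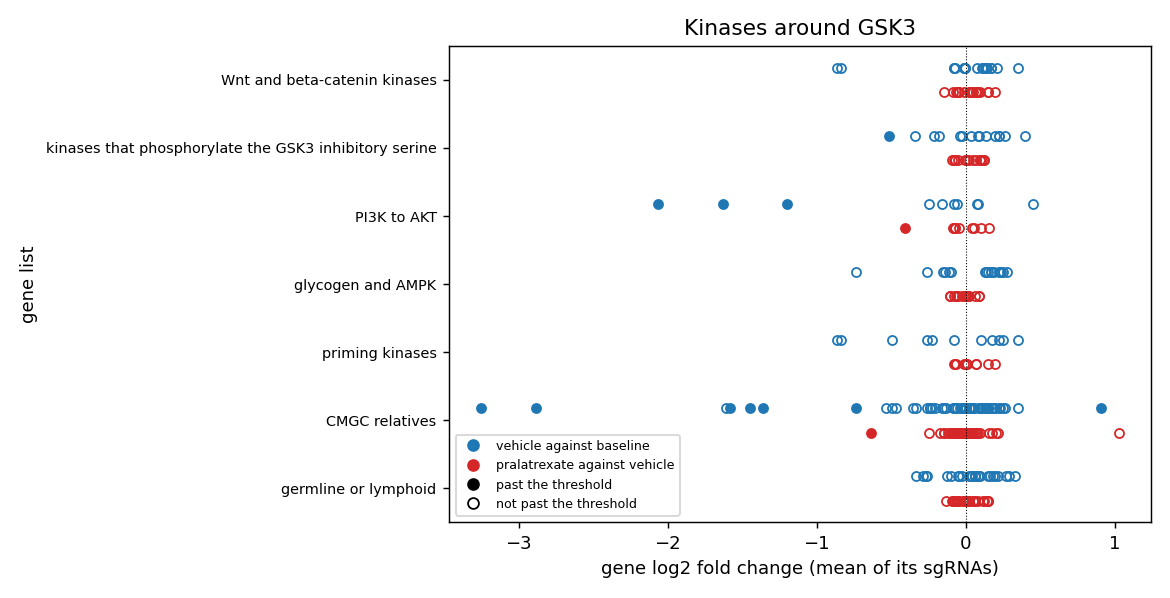
Log2 fold change of every gene in the 7 lists, with vehicle against baseline in blue and pralatrexate against vehicle in red; each point is a gene, the mean of its sgRNAs, and filled points passed the threshold (FDR under 0.05). The filled points of the PI3K to AKT list lie between −2.07 and −0.40, and the filled point on the right is CDK13 at 0.91.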

How the data were processed

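The authors deposited raw read counts per sgRNA for 9 libraries, not normalized. The submitters' processing notes name Bowtie 1.0.0. Counting program: not given in the sources used here. No molecular identifiers are mentioned, so PCR copies count as reads. The 2 deposited gene tables hold the authors' own comparisons and were not used. Totals ran from 2468136 to 4602712 reads.

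sgRNAs with a mean under 30 reads were removed (7 of 3152). The rest were fitted in edgeR 4.0.16 (R 4.3.3; quasi-likelihood, TMM, group as the only term, all libraries), with a coefficient of variation of 13.2% between libraries. The study's MAGeCK was not installed. One-sided p-values were ranked and aggregated per gene (robust rank aggregation over sgRNAs with p under 0.25), with the p under permuted ranks computed exactly, and Benjamini-Hochberg adjustment across the 763 genes (FDR threshold 0.05). The gene fold change is the mean over sgRNAs. Levels per library use log2 CPM with 0.5 reads added, and intervals use limma 3.58.1. The scripts were tested on simulated data. Within groups, chi-square per degree of freedom between libraries was 10.7 to 25.8, so none was a copy of another.

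Same-numbered vehicle and pralatrexate libraries correlated in their deviations from the group means by 0.17 to 0.21 over sgRNAs and other pairs by −0.17 to −0.02, so the numbers of the labels pair them. Same-numbered baseline and vehicle libraries correlated by 0.0092 to 0.094 and their other pairs by −0.11 to 0.032. For baseline and pralatrexate the ranges were −0.046 to 0.029 and −0.058 to 0.077. These ranges overlap, so a pairing of the baseline libraries was not settled. Named genes are both GSK3 genes, up to 4 genes a list past the threshold by size of change, and the 5 most alike each gene, of which 1 is not reported here. CDK13, CDK12, BLK, RPS6KA3, CSNK1A1 and CSNK2A1 were named in their lists after their values were seen. Members, lists and tests were chosen with earlier results of these data known. Gene positions are GENCODE v44 on GRCh38. Alternatives were other filters, scalings and tools (DESeq2 1.42.0 among them), the replicate block, and leaving out each library or sgRNA.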

Additional observations from a re-analysis of the deposited data

How the results depend on the processing

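For pralatrexate against vehicle, neither GSK3 gene passed the threshold under any alternative, which were the 2 filters, the scalings on non-targeting and on germline or lymphoid sgRNAs, DESeq2, the compared groups alone, the replicate block, summed reads, limma, and each library or sgRNA left out. GSK3B kept its direction in all of them (0.042 without its sgRNA 2, to 0.15 without vehicle library 2). GSK3A lay between −0.091 (without its sgRNA 4) and −0.0025 (without its sgRNA 1) with 1 sgRNA left out. With 1 library left out it lay between −0.062 and 0.012. Its sign turned without vehicle library 1 (0.0040) and without pralatrexate library 3 (0.012). Relative to non-targeting sgRNAs it lay between −0.067 and 0.032 with 1 library left out, and its sign turned in the same way (0.0091 and 0.032), while GSK3B lay between 0.065 and 0.14. The replicate block gave −0.025 and 0.095 and changed no call of either gene. A block in the day 10 libraries alone, chosen after seeing the data, gave −0.021 and 0.096.

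Against baseline, the reference moved the values most. From the germline or lymphoid sgRNAs, GSK3A was 0.38 with vehicle and 0.34 with pralatrexate where it was 0.077 and 0.055 from the non-targeting sgRNAs, and GSK3B was 0.45 and 0.53 where it was 0.15 and 0.25. Without the 3 retinal genes of that list, left out after seeing the data, the values were 0.37 and 0.34 for GSK3A and 0.45 and 0.53 for GSK3B. With 1 library left out the non-targeting values ranged from 0.046 to 0.12 and 0.017 to 0.11 for GSK3A, and from 0.062 to 0.20 and 0.16 to 0.30 for GSK3B. GSK3B minus GSK3A ranged from −0.040 to 0.14 for vehicle against baseline, from 0.056 to 0.21 for pralatrexate against vehicle, and from 0.076 to 0.26 for pralatrexate against baseline.

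Counts of genes depended on the test. Testing gene sums in edgeR or gene means in limma, which does not rank sgRNAs, gave 160 and 151 depleted and 110 and 69 enriched genes with vehicle, 174 and 152 depleted and 123 and 75 enriched with pralatrexate against baseline, and 1 enriched gene each for pralatrexate against vehicle. DESeq2 gave 1 enriched gene with vehicle. With 1 library left out, enriched genes with vehicle ranged from 1 (without vehicle library 3) to 5 (without baseline library 2), and depleted genes from 49 to 56. For pralatrexate against vehicle depleted genes ranged from 1 (without vehicle library 2) to 5, with 2 without pralatrexate library 2, and enriched genes stayed at 0. For pralatrexate against baseline enriched genes ranged from 1 (without pralatrexate library 1 or 2) to 5 (without baseline library 3), and depleted genes from 50 to 57. With the replicate block the counts were 49 and 3, 5 and 0, and 55 and 2. The cause of these differences was not tested.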
